A study of Mus musculus with 2 samples.

Results

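The genes described here encode the subunits of ionotropic neurotransmitter receptors, the ion channels that open when glutamate, GABA or glycine binds. The list was fixed by gene symbol and held 37 of 21774 protein-coding genes, of which 17 encode subunits of glutamate receptors (excitatory receptor genes) and 20 encode subunits of GABA-A, GABA rho and glycine receptors (inhibitory receptor genes). The histone variant H2AZ had been mapped by chromatin immunoprecipitation with sequencing (ChIP-seq) in C57BL/6 embryos, in cells labelled as neural progenitors from the brain at embryonic day 13. The series had 1 ChIP library and 1 input library, both from that strain, tissue and stage and with no allele or treatment named, and the deposited values were 1 list of peaks, of which 21546 were used. The labels do not say how the cells were separated from the rest of the brain. Without replicates no value has a replicate check. The number of reads was unknown, and no value here compares ChIP with input. The peak list gives no expression, so the progenitor label was not checked against marker levels.

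AMPA, kainate and NMDA receptors are tetrameric cation channels that carry fast excitation, and the delta subunits are built alike but serve mainly as synaptic adhesion and signalling receptors. GABA-A, GABA rho and glycine receptors are pentameric chloride channels that inhibit mature neurons, whereas in embryonic neurons chloride often leaves the cell and GABA depolarises it. Most of these subunits act in neurons after the progenitor stage, and the set of subunits changes as the brain matures. H2AZ replaces the canonical histone H2A in nucleosomes, typically those that flank the start sites of genes.

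Every excitatory receptor gene had a listed H2AZ peak at an end or at a RefSeq start inside it, whereas 8 inhibitory receptor genes had neither. A peak within 1 kb of a gene end, overlapping that window by at least 1 bp, was present at 16 of 17 excitatory receptor genes (94.1%, 95% exact binomial interval 71.3 to 99.9%) and at 11 of 20 inhibitory receptor genes (55.0%, 31.5 to 76.9%). Among all protein-coding genes 55.4% had such a peak, which places the inhibitory genes near the background and the excitatory genes above it. A library from many cells cannot tell a peak present in few cells from a weak peak present in all. The intervals treat the genes as independent draws, though the list was fixed by symbol and Gabra4 and Gabrb1 share a peak. They cover counting error only under that assumption and are no test against the background. The difference between these lists of genes was not tested. With listed starts counted as well as gene ends, the counts were 17 of 17 and 12 of 20, against 57.8% of all protein-coding genes.

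**Figure D1:**
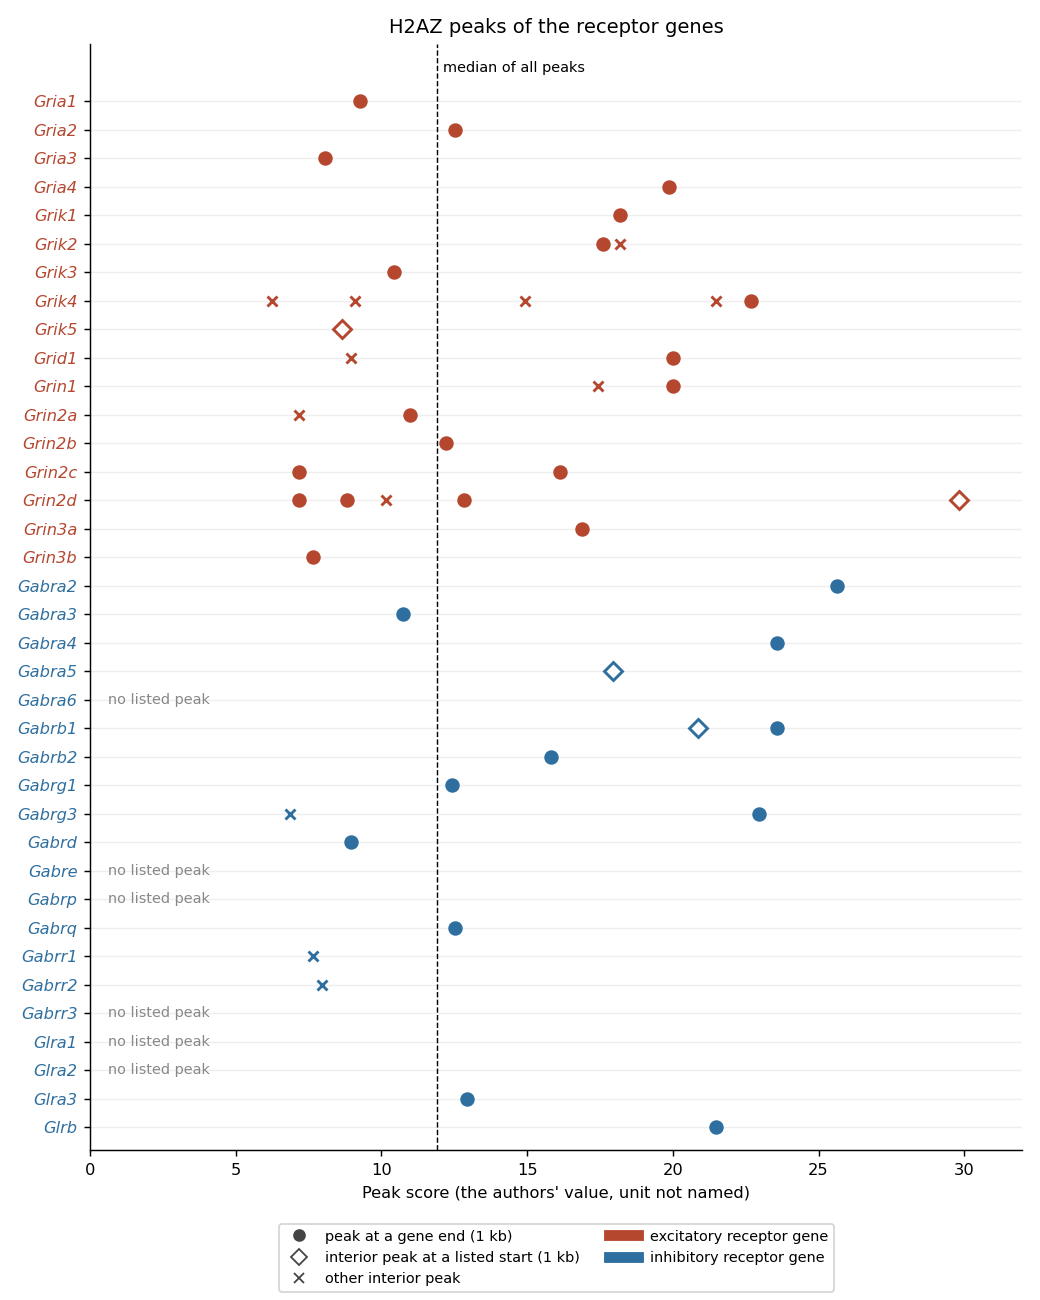
Score of every listed peak of the 37 receptor genes (horizontal axis, the authors' value per peak) by gene (vertical axis). Filled circles are peaks at a gene end, open diamonds are interior peaks at a listed start, crosses are other interior peaks and the dashed line is the median of all peaks, 11.9. Each excitatory gene (red) has at least 1 symbol, and 6 inhibitory genes (blue) have none.

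RefSeq promoter sequences, 250 bases before to 50 after a gene's start (GRCm38.p6), were at hand for 28 of the 37 genes with 32 starts in all. They are shown for the 3 excitatory and the 3 inhibitory genes with the highest-scoring peak within 1 kb of a listed start, and for Gabra6, the first inhibitory gene in alphabetical order without a listed peak. Each excitatory gene had a peak, so none stands beside Gabra6. Capitals mark CpG dinucleotides. The excitatory windows are chr7:45866632-45866931 for Grin2d, chr9:42944322-42944621 for Grik4 and chr2:25319138-25319437 for Grin1, all read from the minus strand.
Grin2d: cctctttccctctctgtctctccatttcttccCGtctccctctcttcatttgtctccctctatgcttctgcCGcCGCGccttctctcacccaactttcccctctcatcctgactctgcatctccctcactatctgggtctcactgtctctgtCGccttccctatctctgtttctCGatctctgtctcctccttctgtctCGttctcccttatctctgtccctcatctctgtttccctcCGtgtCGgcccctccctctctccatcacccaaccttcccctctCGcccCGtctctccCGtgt
Grik4: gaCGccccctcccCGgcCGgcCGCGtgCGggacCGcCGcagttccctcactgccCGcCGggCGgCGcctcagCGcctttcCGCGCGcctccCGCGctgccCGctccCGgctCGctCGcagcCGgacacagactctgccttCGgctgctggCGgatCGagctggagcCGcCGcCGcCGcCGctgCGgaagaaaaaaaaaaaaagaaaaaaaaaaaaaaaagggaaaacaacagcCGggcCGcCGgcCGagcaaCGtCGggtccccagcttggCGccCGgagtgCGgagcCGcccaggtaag
Grin1: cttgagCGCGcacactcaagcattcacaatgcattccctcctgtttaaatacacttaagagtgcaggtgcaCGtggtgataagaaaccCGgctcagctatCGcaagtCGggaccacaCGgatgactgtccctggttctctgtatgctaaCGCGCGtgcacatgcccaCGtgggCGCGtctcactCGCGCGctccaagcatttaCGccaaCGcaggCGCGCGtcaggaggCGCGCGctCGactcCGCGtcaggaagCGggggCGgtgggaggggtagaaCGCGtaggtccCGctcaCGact
These windows held 12, 42 and 33 CpG. The peak over the Grin2d start scored 29.8, that of Grik4 22.7 and that of Grin1 19.99.

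The inhibitory windows are chr5:71095800-71096099 (Gabra2, minus strand), chr5:71658259-71658558 (Gabra4, minus strand) and chr5:71657671-71657970 (Gabrb1, plus strand), and that of the gene without a peak is chr11:42321023-42321322 (Gabra6, minus strand).
Gabra2: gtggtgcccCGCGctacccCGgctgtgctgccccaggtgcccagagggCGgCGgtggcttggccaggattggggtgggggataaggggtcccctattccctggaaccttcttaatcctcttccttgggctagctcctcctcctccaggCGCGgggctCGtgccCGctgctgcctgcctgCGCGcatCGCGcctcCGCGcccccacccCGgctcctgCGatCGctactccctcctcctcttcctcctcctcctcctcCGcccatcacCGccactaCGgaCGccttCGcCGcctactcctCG
Gabra4: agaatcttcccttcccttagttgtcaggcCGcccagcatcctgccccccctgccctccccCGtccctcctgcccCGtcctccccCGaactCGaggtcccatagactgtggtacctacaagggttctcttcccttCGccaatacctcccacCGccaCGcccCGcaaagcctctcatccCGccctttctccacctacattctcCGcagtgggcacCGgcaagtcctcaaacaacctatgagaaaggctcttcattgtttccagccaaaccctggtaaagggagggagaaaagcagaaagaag
Gabrb1: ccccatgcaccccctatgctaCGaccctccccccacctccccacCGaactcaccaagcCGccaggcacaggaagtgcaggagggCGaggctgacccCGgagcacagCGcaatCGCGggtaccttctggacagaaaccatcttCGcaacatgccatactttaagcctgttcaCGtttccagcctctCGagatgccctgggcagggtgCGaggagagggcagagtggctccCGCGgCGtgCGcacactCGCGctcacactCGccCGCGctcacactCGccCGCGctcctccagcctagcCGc
Gabra6: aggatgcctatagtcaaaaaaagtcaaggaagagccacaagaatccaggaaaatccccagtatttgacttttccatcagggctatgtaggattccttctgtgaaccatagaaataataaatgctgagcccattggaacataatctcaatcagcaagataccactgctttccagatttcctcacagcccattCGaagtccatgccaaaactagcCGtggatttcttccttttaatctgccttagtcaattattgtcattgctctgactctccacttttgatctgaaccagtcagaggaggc
The windows held 25 CpG at Gabra2, 12 at Gabra4, 25 at Gabrb1 and 2 at Gabra6. Gabra4 and Gabrb1 run in opposite directions and overlap at their 5' ends by 388 bp, and a single peak of score 23.6 covered both starts.

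The starts of Gabra5 and of a shorter Gabrb1 form, at chr7:57510010-57510309 (minus strand) and chr5:71699682-71699981 (plus strand), lie deep inside the genes, so their peaks count as interior. They are shown because a reading by gene ends alone would miss them, and were chosen after their values were seen.
Gabra5: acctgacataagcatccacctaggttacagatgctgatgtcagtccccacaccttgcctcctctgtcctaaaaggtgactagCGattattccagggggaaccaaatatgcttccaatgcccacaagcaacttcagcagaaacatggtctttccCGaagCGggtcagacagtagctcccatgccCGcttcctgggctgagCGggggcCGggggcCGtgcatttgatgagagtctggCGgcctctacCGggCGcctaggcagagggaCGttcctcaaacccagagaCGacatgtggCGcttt
Gabrb1, inner start: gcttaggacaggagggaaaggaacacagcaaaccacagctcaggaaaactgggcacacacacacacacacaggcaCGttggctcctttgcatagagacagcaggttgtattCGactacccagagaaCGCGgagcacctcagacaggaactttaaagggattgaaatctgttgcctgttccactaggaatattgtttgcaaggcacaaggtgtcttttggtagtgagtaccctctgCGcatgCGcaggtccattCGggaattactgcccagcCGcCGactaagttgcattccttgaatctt
They held 13 and 9 CpG, and the peaks over them scored 17.9 and 20.9.

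All 4 AMPA receptor genes had an end peak, and their scores were spread from below to well above the median of all peaks. Gria4 had the highest, 19.9 (chromosome 9, 4793626 to 4797150, rank 3955 of 21546 by score). Gria2, which encodes the subunit that limits calcium entry through AMPA channels, had a peak of 12.5 (chromosome 3, 80800180 to 80804024). Its width of 3845 bp was the largest of any peak at these 37 genes. Gria1 scored 9.25 (chromosome 11, 57010787 to 57012938). Gria3, on the X chromosome, scored 8.05 (41399922 to 41402870), so these last genes stood below the list's median of 11.9. No AMPA receptor gene held an interior peak. All were between 123 and 378 kb long, and 42.8% of all protein-coding genes of 100 kb or longer held one.

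Among the kainate receptor genes, Grik4 stood out by its number of peaks. Grik1, Grik2 and Grik3 encode subunits that can form channels by themselves, and Grik4 and Grik5 encode subunits that need 1 of those as a partner. The Grik4 start peak scored 22.7 (chromosome 9, 42942938 to 42945275). Inside the 427 kb gene lay 4 further peaks, with scores of 21.5, 14.9, 9.09 and 6.23, at 46.7, 424, 411 and 316 kb from the start in that order. The strong inner peak at 46.7 kb was at no listed start of Grik4, and the peak of 14.9 lay 2.66 kb from the 3' end. Grik1 had an end peak of 18.2 (chromosome 16, 88288775 to 88291412) and Grik3 of 10.4 (chromosome 4, 125489371 to 125491741). Grik2 had a start peak of 17.6 and a neighbour of 18.2 whose midpoint lay 5.59 kb downstream of the start (chromosome 10, 49781984 to 49784338). Grik5 alone among the excitatory genes had no end peak, but a peak of 8.65 covered its listed start, which lies 3.33 kb inside the annotated gene (chromosome 7, 25071458 to 25073973). A further peak near Grik5 lay outside the gene, 1216 bp from its end, and scored 7.76.

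Grid1, the delta receptor gene in the list, was the longest of the 37 genes (763 kb) and had an end peak of 19.99 with its midpoint 11 bp from the annotated end (chromosome 14, 34818501 to 34821527). A weaker interior peak of 8.95 lay 76.6 kb from that end.

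All 7 NMDA receptor genes had an end peak, and they differed in how many peaks they carried. Grin1 encodes the subunit present in all NMDA receptors. Its start peak scored 19.99 (chromosome 2, 25317981 to 25319786), and an interior peak of 17.4 lay 13.8 kb downstream. Grin2b and Grin2d encode glutamate-binding subunits that are already prominent before birth, and Grin2a and Grin2c encode those that rise after birth. The Grin2b end peak scored 12.2 (chromosome 6, 136171293 to 136173582) and that of Grin2a 11.0 (chromosome 16, 9992510 to 9996226), so the early and the late gene of this pair had scores close to each other. Both peaks were also at the end of a long non-coding RNA gene, Gm26653 and Gm30668. The other early and late genes, Grin2d and Grin2c, differed more, with peaks of 29.8 and 7.16 over their listed starts. Their highest end peaks, both at the 3' end, scored 12.8 and 16.1.

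Grin2d carried 5 peaks within 39.3 kb. The peak over its listed start, 4.51 kb inside the annotated gene, scored 29.8 and ranked 204 of 21546, the highest score at any of the 37 genes (chromosome 7, 45865969 to 45867310). The outermost 5' end had a peak of 7.16, the 3' end had peaks of 12.8 and 8.83, and an interior peak scored 10.1. The peak of 12.8 was also at an end of the neighbouring gene Grwd1. Grin2c had its stronger peak at the 3' end (16.1; chromosome 11, 115249523 to 115251234) and a weaker peak over its start (7.16), the latter also at an end of Fdxr. Grin2c and Grin2d were the only members with peaks at both ends (5.41% of 37, against 3.76% of all protein-coding genes). Grin3a, whose subunit lowers calcium entry, had an end peak of 16.9 (chromosome 4, 49844163 to 49846587). Grin3b, whose product is best known from motor neurons, had a peak of 7.65 over its start (chromosome 10, 79970439 to 79971667).

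Among the GABA-A and GABA rho receptor genes, an end peak was present at 3 of 5 alpha, 2 of 2 beta, 2 of 2 gamma, 2 of 4 delta, epsilon, pi and theta and 0 of 3 rho genes. Alpha and beta subunits form the GABA binding site, and gamma subunits anchor the receptor at synapses and form the site for benzodiazepines. Gabra2 had the highest end score of all 37 genes, 25.7, on a peak of 3050 bp (chromosome 5, 71094514 to 71097563, rank 913). The peak shared by Gabra4 and Gabrb1 scored 23.6 (chromosome 5, 71656789 to 71658710) and counts for both genes. Gabrg3 had a start peak of 23.0 (chromosome 7, 57386032 to 57387796) and an interior peak of 6.86, and Gabrb2 a peak of 15.8 that covered 3 listed starts (chromosome 11, 42418921 to 42422421). Gabrg1 scored 12.4 (chromosome 5, 70841515 to 70844101).

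Among the other alpha genes, Gabra5, whose subunit serves mainly receptors outside synapses, had no end peak. A peak of 17.9 covered its listed start, 81.0 kb inside the annotated gene (chromosome 7, 57508493 to 57510503). Gabra3, on the X chromosome, had a peak of 10.7 whose midpoint lay 1111 bp downstream of the nearer of its listed starts and which covered neither of them (72655120 to 72656273). Gabra6, known for its restriction to cerebellar granule cells after birth, had no listed peak, and the nearest lay 97.8 kb from its ends.

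Of the delta, epsilon, pi and theta genes, Gabrq on the X chromosome had a start peak of 12.5 (72824513 to 72826120) and Gabrd, which encodes a subunit of receptors outside synapses, an end peak of 8.95 (chromosome 4, 155397254 to 155398574). Gabre and Gabrp had none, and the nearest peaks to their ends were 293 and 264 kb away. The rho genes, best known from the retina, had no end peak in 3 of 3 cases. Gabrr1 and Gabrr2 each held an interior peak, of 7.65 and 7.95, at 14846 and 9797 bp downstream of the start, and Gabrr3 held none.

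Glycine receptors join alpha subunits with the beta subunit, which binds the scaffold gephyrin. Glrb, the beta gene, had a start peak of 21.5 (chromosome 3, 80912446 to 80914580) and Glra3 of 12.95 (chromosome 8, 55939571 to 55941292). Glra1, the main alpha gene of the adult spinal cord, and Glra2, the main alpha gene before birth, had no listed peak in the gene or at its ends. The nearest peaks to the ends of Glra1 and Glra2 were 43.4 and 147 kb away.

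In all, 6 of the 37 genes had no end peak and no interior peak: Gabra6, Gabre, Gabrp, Gabrr3, Glra1 and Glra2. This was 6 of 20 inhibitory and 0 of 17 excitatory genes, against 38.9% of all protein-coding genes. The deposited list holds 66.1% of the peak numbers that its names run to, so peaks at these genes may exist that the deposited list leaves out. Of the 5 members on the X chromosome 3 had an end peak, where 40.2% of all protein-coding genes had one. With autosomal genes alone the counts were 15 of 16 excitatory and 9 of 16 inhibitory genes, against 56.8% of all autosomal protein-coding genes.

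Gene length and neighbours differed between the lists. The median length was 278 kb for excitatory and 90.1 kb for inhibitory receptor genes, against 17.2 kb over all protein-coding genes. Of the members of 100 kb or longer, 12 of 12 excitatory and 6 of 8 inhibitory genes had an end peak, against 67.5% of all genes of that length. Under 100 kb the counts were 4 of 5 and 5 of 12, against 53.9%. Among members with no boundary of another protein-coding gene within 2 kb, 12 of 12 excitatory and 9 of 17 inhibitory genes had an end peak, against 47.5% of all such genes. On the excitatory side these were the same 12 genes as those of 100 kb or longer, and all 5 shorter genes had such a boundary near. Among the shorter inhibitory genes only Gabra4 had one, so length and neighbours cannot be told apart on the excitatory side. The excitatory list had the larger share on either side of 100 kb, with few genes in each class. The part of gene length or of neighbours in the difference was not tested.

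**Figure D2:**
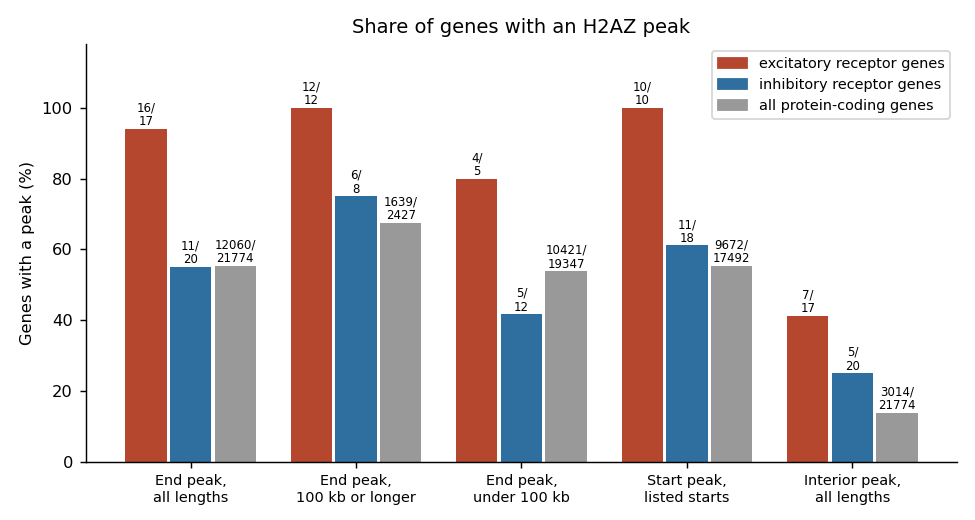
Share of genes with a peak (vertical axis, %) for excitatory receptor genes (red), inhibitory receptor genes (blue) and all protein-coding genes (grey), with the counts above each bar. The red bars for end and start peaks stand at 80 to 100%, and the blue bars lie between 41.7 and 75%.

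Where genes of the lists had peaks, their scores overlapped widely. The highest end peak per gene had a median score of 14.5 over 16 excitatory genes (range 7.65 to 22.7) and of 15.8 over 11 inhibitory genes (range 8.95 to 25.7), against 17.1 over all protein-coding genes with an end peak. On autosomes alone the medians were 16.1 over 15 excitatory and 21.5 over 9 inhibitory genes, against 17.3 over all such protein-coding genes. Scores on the X chromosome were lower, with a median of 9.84 over all its protein-coding genes with an end peak. End peaks at or above the median score of the list were present at 11 of 17 excitatory and 9 of 20 inhibitory genes, against 44.4% of all protein-coding genes. A score at or above the upper quartile of the list, 17.9, was reached by 5 of 16 and 5 of 11 genes with an end peak, against 45.6%, and Gabra4 and Gabrb1 reached it with the same peak. The highest end peak was 3 kb or wider at 6 of the 27 members with an end peak, against 7.84% of all genes with an end peak. These were Gria2, Gria4, Grid1, Grin2a, Gabra2 and Gabrb2.

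The strand was known for the 28 genes with a listed start, and there the 5' end could be told from the 3' end. Of these genes 19 had an end peak, and in 19 of 19 a peak was at the 5' end, while the 3' end had a peak only in Grin2c and Grin2d. A peak within 1 kb of a listed start was found at 10 of 10 excitatory and 11 of 18 inhibitory genes, against 55.3% of 17492 protein-coding genes with a listed start. With peaks at or above the median score alone the counts were 6 of 10 and 10 of 18, against 44.6%, so the shares of the lists then lay close together. The midpoint of the highest start peak lay downstream of the nearest start in 14 of 21 genes and upstream in 7, with a median of 147 bp downstream and a range from 346 bp upstream (Grik5) to 1111 bp downstream (Gabra3). The peak covered the start itself in 20 of 21 genes, Gabra3 being the exception. The counts by 5' and 3' end and these positions have no values over all protein-coding genes beside them. They describe the members alone. The genes without a listed start are Gria1, Gria3, Grik1, Grid1, Grin2a, Grin2b, Grin3a, Gabrd and Glra1.

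**Figure D3:**
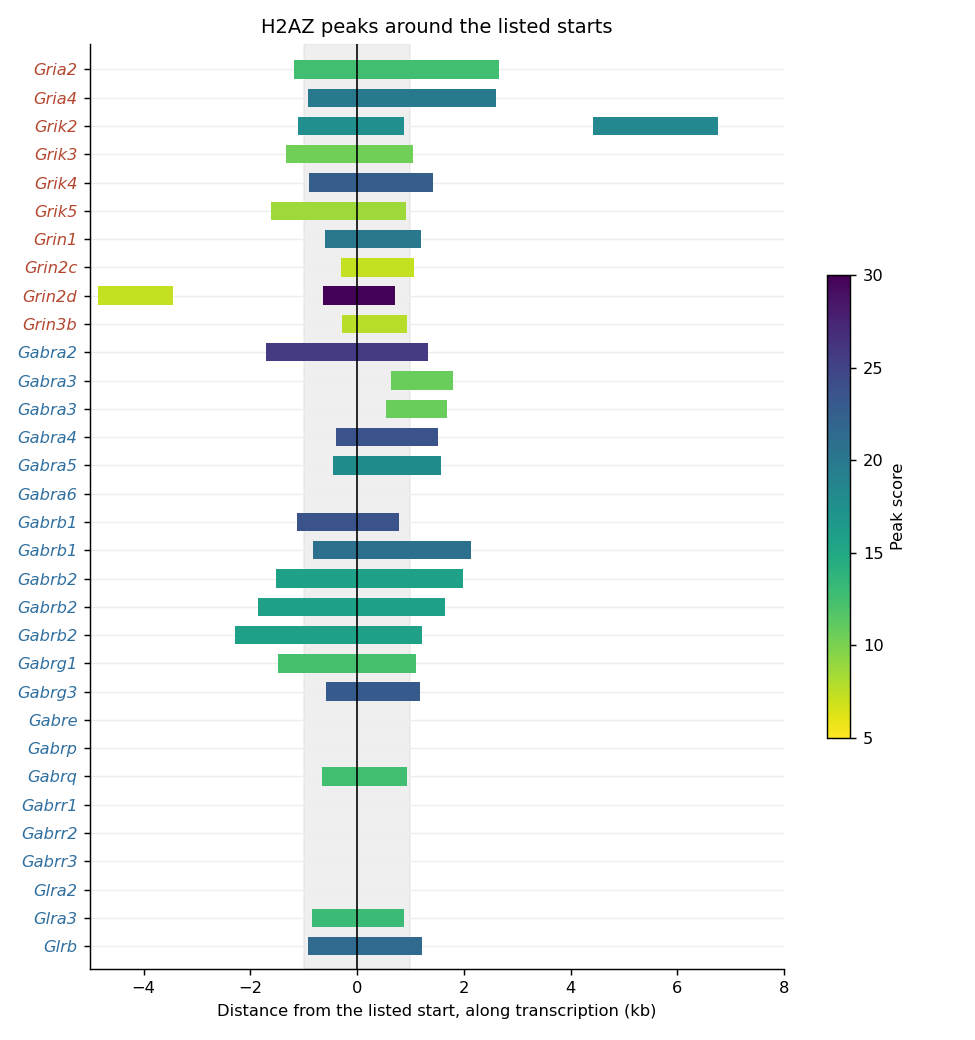
Extent of the listed peaks around each of the 32 listed starts (horizontal axis, distance along the direction of transcription in kb; colour, peak score). Red names are excitatory and blue names inhibitory genes, genes with several starts have several lines, and the grey band is 1 kb on either side of the start. Bars cross the start in 20 of 21 genes with a start peak, the Gabra3 bars lie to its right, and 7 inhibitory genes have no bar.

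CpG content set the windows with and without a peak apart only in part. The 25 member windows with a start peak, from 21 genes, had a median of 13 CpG (range 0 to 50), and the 7 without had a median of 4 (range 2 to 24). Over all protein-coding genes the medians were 21 with and 4 without a start peak. The windows shown above for Grik4 and Gabra6 lie near the upper and the lower end of this range. The excitatory windows had a median of 24 CpG and 65.2% G and C, and the inhibitory windows of 9 CpG and 52.5%. Gabra3 has 2 overlapping windows and Gabrb2 has 3, so these windows are not separate sequences.

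In the class of 20 or more CpG, 6 of 6 excitatory and 4 of 5 inhibitory windows had a start peak, against 82.6% of all listed starts. The exception was Gabre, with 24 CpG and no peak. From 10 to 19 CpG, 3 of 3 and 4 of 4 had one (79.2% of all). From 5 to 9 CpG, 4 of 6 inhibitory windows had one (38.6% of all). Those 4 belong to Gabrb1, Gabrb2 and Glra3, and those without to Gabrr1 and Glra2. Under 5 CpG, where 8.25% of all listed starts had a peak, 1 of 1 excitatory and 3 of 7 inhibitory windows had one. They belong to Grin3b (3 CpG), Gabrg1 (3 CpG) and Gabra3 (0 CpG in either window), with peaks of 7.65, 12.4 and 10.7.

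**Figure D4:**
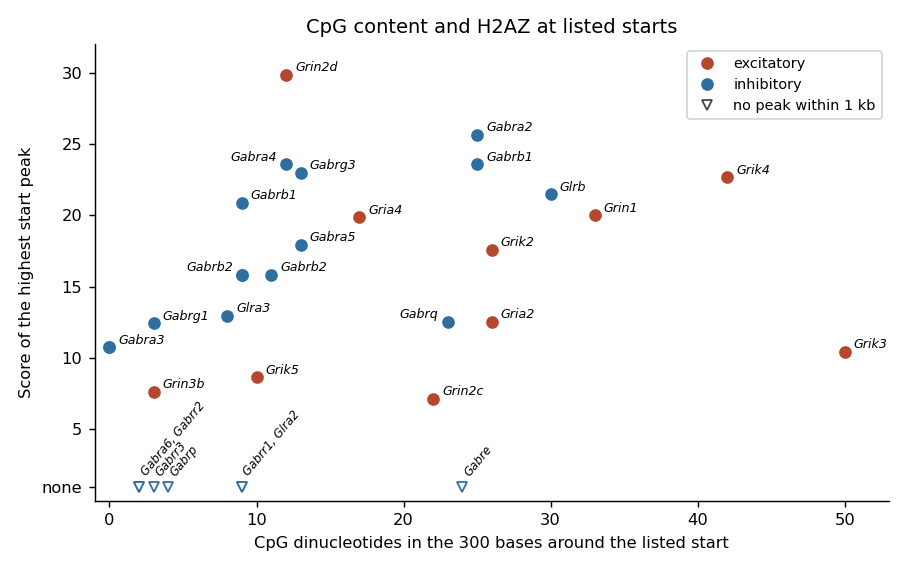
Number of CpG dinucleotides in the 300 bases around a listed start (horizontal axis) against the score of the highest peak within 1 kb of it (vertical axis), with 1 point for each listed start. Triangles at the bottom are the 7 starts without a peak, which all belong to inhibitory genes (blue) and, with the exception of Gabre, hold 9 CpG or fewer.

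Short motifs were searched on both strands of the same windows, and a match describes the letters only. None of the motifs contains another, and GGGCGG and the NRF1 motif themselves contain CpG. GGGCGG, the letters of the GC box, was in 5 of 10 excitatory and 10 of 22 inhibitory windows, against 46.2% of all listed starts. CCAAT was in 1 of 10 excitatory windows (Gria4) and 12 of 22 inhibitory windows, against 38.2%. TATAAA was in 1 of 10 and 4 of 22, against 12.6%. The E-box letters CANNTG were in 7 of 10 and 12 of 22, against 69.0%. The consensus motif of NRF1, searched by its full palindrome, was found in 1 of 22 inhibitory windows, that of the inner Gabrb1 start printed above, and in 0 of 10 excitatory windows, against 1.33% of all listed starts. The 22 inhibitory windows come from 18 genes, and the 10 excitatory windows from 10. Both of the overlapping Gabra3 windows held CCAAT and TATAAA, so that gene counts more than once for each. With so few windows these counts are a description.

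Over genes of all lengths, interior peaks were fewer per 100 kb in the receptor genes than over all protein-coding genes. An interior peak, overlapping the gene and more than 1 kb from its ends, was held by 7 of 17 excitatory and 5 of 20 inhibitory genes, against 13.8% of all protein-coding genes. Among genes of 100 kb or longer the counts were 4 of 12 and 3 of 8, against 42.8%. Per 100 kb of interior there were 0.229 peaks in the excitatory and 0.177 in the inhibitory genes, against 0.448 over all protein-coding genes. In genes of 100 kb or longer the rates were 0.150, 0.131 and 0.334, and in shorter genes 2.70, 0.374 and 0.627, so the short excitatory genes had the higher rate. That rate of 2.70 rests on 4 peaks in 5 genes, among them the peaks at the listed starts of Grik5 and Grin2d. With peaks at or above the median score alone the rates were 0.104, 0.0707 and 0.145 over genes of all lengths. Of the 16 interior peaks 4 lay at a listed start (Grik5, Grin2d, Gabra5 and the inner start of Gabrb1), with a median score of 19.4. The other 12 had a median of 9.02, and Grik4 held 4 of them.

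Several GABA-A genes stand next to each other, and the peaks in these regions were those of the members. The region of Gabrg1, Gabra2, Gabra4 and Gabrb1 on chromosome 5 (70751047 to 72149572) spans 1.4 Mb and held 4 peaks, each at a listed start of a member. The region of Gabre, Gabra3 and Gabrq on the X chromosome spans 0.586 Mb and held 2 peaks, those of Gabra3 and Gabrq. From Gabrg3 to Gabra5 on chromosome 7 there were 3 peaks in 0.875 Mb, and from Gabra6 to Gabrb2 on chromosome 11 there was 1 peak in 0.326 Mb, that of Gabrb2. The region of Gabrr2 and Gabrr1 on chromosome 4 spans 0.106 Mb and held only their 2 interior peaks. No listed peak lay between the genes in these 5 regions, which run between the outer ends of their members. No value for stretches between other genes stands beside this.

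**Figure D5:**
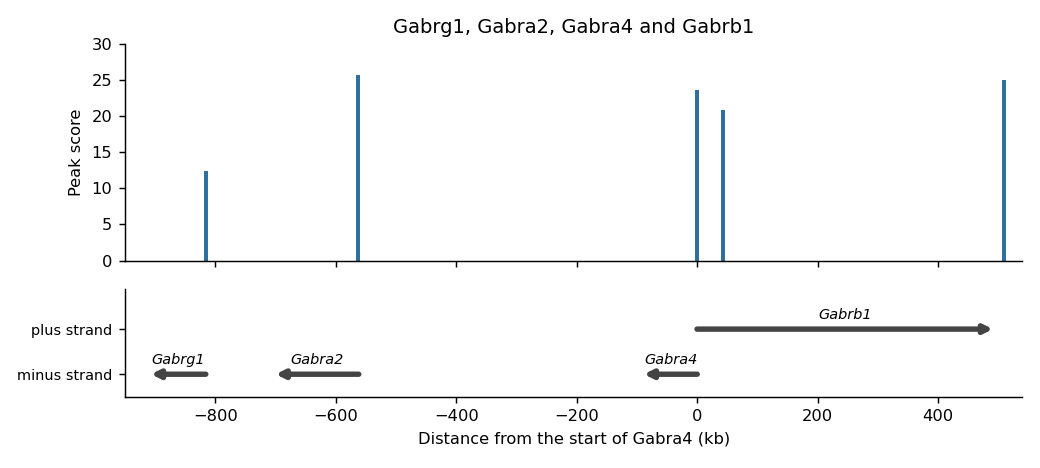
Listed peaks (top, bar height is the score) and genes (bottom, arrows point in the direction of transcription) on chromosome 5, as distance from the start of Gabra4 in kb. The bars with scores of 12.4, 25.7, 23.6 and 20.9 stand at starts of Gabrg1, Gabra2, Gabra4 with Gabrb1, and the inner start of Gabrb1, and the bar at the right edge lies beyond Gabrb1.

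Other genes of glutamate, GABA and glycine signalling were described by the same rule, in 6 lists of 67 genes, of which 49 (73.1%) had an end peak, against the 55.4% of all protein-coding genes. Scaffold genes of excitatory synapses had one in 14 of 17 cases, led by Homer3 (28.9), Pick1 (28.3) and Dlg1 (25.7), and scaffold genes of inhibitory synapses in 5 of 7, led by Insyn1 (19.7), Lhfpl4 (14.9) and Iqsec3 (11.6). Metabotropic receptor genes, which signal through G proteins, had one in 8 of 10 cases, led by Grm7 (22.1), Grm8 (18.8) and Gabbr2 (18.8). Auxiliary subunits of glutamate receptors had one in 10 of 14, led by Neto1 (23.0), Neto2 (21.8) and Shisa9 (19.4). Genes of glutamate supply and uptake had one in 7 of 9, led by Slc1a2 (26.3), Slc1a1 (20.9) and Glul (17.9), and genes of GABA and glycine supply and of chloride transport in 5 of 10, led by Slc12a2 (18.1) and Slc6a11 (16.4). The scaffold lists also differ in gene length, with a median of 101 kb on the excitatory and 27.3 kb on the inhibitory side. No test was made of the differences between these lists.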

How the data were processed

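ChIP-seq of H2AZ and an input were made from 1 library each, and no read numbers were at hand, so depth is unknown. The authors deposited 1 peak list without a header, with chromosome, start, end, peak name and a score; what the score measures is not named in it, and it was used only to describe and rank peaks within the list. The peak names carry the name MACS, per the deposited file. The submitters' processing notes name CASAVA 1.4, Bowtie2 2, FastQC and the build mm9, and no source used here gives the caller's settings or its control.

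Positions were read as GRCm38. In a check on 20860 of the peaks, 44.8% lay within 1 kb of a start listed in RefSeq's GRCm38.p6 promoter table. After a shift of 1000000 bp either way 4.10 to 4.35% of them did. Starts are printed counted from 1. The 46 peaks that stood out of order on their chromosome were left out, as were 348 genes on other sequences. Genes were taken from the RefSeq gene table of GRCm38.p6, which gives outermost ends, so an end can lie away from a start in use. All 37 symbols were found. A gene's end score is that of its highest end peak.

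Lists are described by counts beside those over all protein-coding genes, and no test was made. The members and lists were chosen with earlier results of these data known. Every member is named by rule; of other lists, up to 3 with the highest end peak, and 1 gene of these lists is not reported here. Alternatives were other windows (500 bp, 2 kb and 5 kb), higher-scoring peaks, peak midpoints, peaks overlapping the gene, autosomes, genes without near neighbours, interiors 5 kb from the ends and, added after seeing the data, interior peaks away from listed starts and all deposited peaks. Python 3.11.15 with numpy 2.4.6, pandas 2.3.3, scipy 1.17.1 and matplotlib 3.10.9 was used. The assignment of peaks to genes was tested on simulated peaks.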

Additional observations from a re-analysis of the deposited data

How the results depend on the processing

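With end windows of 500 bp, 2 kb and 5 kb, 16, 17 and 17 of 17 excitatory and 10, 11 and 11 of 20 inhibitory genes had an end peak, against 54.0, 57.3 and 60.8% of all protein-coding genes, and with all deposited peaks or peaks overlapping the gene the counts were 16 and 11. By the peak midpoint they were 12 and 9, against 51.1%, and with peaks at or above the median score 11 and 9, against 44.4%. With those higher-scoring peaks alone, members with an interior peak fell from 12 to 6 (4 excitatory, 2 inhibitory, against 6.09% of all genes), interior peaks per 100 kb were 0.0918 over all members, 0.104 in excitatory and 0.0707 in inhibitory genes, and start peaks were at 6 of 10 excitatory and 10 of 18 inhibitory genes, against 44.6%. Without interior peaks at listed starts, 6 excitatory and 3 inhibitory genes had an interior peak, against 10.2% of all genes. The other alternatives moved counts and medians by less than 1.5 times; the median end score of inhibitory genes was 21.5 on autosomes. No paired analysis was possible because each group has 1 library. Unknown depth, peak numbers missing from the list and the distance of a gene end from a start in use limit the end counts.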

Other observations

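Some member peaks also lay at ends of other genes. Of the 30 peaks counted at member gene ends, 4 were also at an end of another protein-coding gene: those of Gabra4 and Gabrb1, which are the same peak, and 1 each at Grin2c (Fdxr) and Grin2d (Grwd1). A further 5 were also at an end of a long non-coding RNA gene, namely Gm46100 at Gria4, Gm30668 at Grin2a, Gm26653 at Grin2b, Gm34591 at Gabrb2 and Gm9962 at Gabrg3. The peak over the inner start of Gabrb1 was also at an end of the long non-coding RNA gene Gm38562. These counts of shared peaks have no share over all protein-coding genes beside them and describe the members alone. A peak over ends of neighbouring genes cannot be assigned to either gene from its position.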
